A study of Mus musculus with 4 samples.

Results

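The genes described here are 7 transcription factor genes of activated lung ILC2s: Ikzf1, Ikzf3 and Ikzf5 of the Ikaros family, the Runx genes Runx1, Runx2 and Runx3, and Cbfb, the shared partner of the Runx proteins. They were taken by gene symbol from the 22558 genes of the deposited count table. Each of the 7 symbols had 1 row in the count table and 1 row in the normalized table, and all 7 passed the filter on low counts. Group 2 innate lymphoid cells (ILC2s) had been FACS-sorted from digested lungs as CD45+, ST2+ and CD127+ cells without lineage markers, among them CD3ε, CD4, CD5, the T cell receptor chains and CD45R. The 2 WT libraries came from wild-type C57BL/6 mice and the other 2 from mice labelled ICAM-1 KO on the same background, all of them 6 weeks old. All mice, controls included, had received 3 intranasal challenges with 0.5 µg of recombinant mouse IL-33, an epithelial cytokine that activates ILC2s, and lungs were recovered on day 4. Each library was a pool of 4 mice. The deficient mice carry a germline Icam1 allele, so that every cell of the lung lacks the intact gene, and no unchallenged library was analysed here.

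Ikaros proteins are zinc finger factors that bind DNA as dimers with one another and bring chromatin-remodelling complexes to lymphocyte genes. Ikaros, encoded by Ikzf1, is needed for the formation of lymphoid cells, Aiolos (Ikzf3) acts later in B cells and in several differentiated lymphocytes, and Pegasus (Ikzf5) is a more distant relative. Runx proteins bind DNA through a Runt domain as a heterodimer with Cbfb, which does not contact DNA itself. In lymphocytes they silence or activate lineage genes such as Cd4, and in ILC2s Runx and Cbfb complexes are known to guard against an exhausted-like state. Each Runx gene is read from more than 1 promoter, and the gene counts here sum over all of them.

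The estimated counts of the libraries summed to between 24796148 and 28782471, and the members held 572 to 5546 counts per library. Icam1 itself was not lower in libraries labelled ICAM-1 KO. Its counts were 2579 and 2630 in WT against 2812 and 3453, so directions below rest on the labels. These gene counts sum over all exons, and which exons the allele still transcribes is not given in the sources used here, so that they do not settle the labels either way. At an adjusted p under 0.05, 8.8% of all 11711 genes tested were higher and 4.97% lower in libraries labelled ICAM-1 KO. Of 17 ILC2 genes, all tested, 2 were higher and 5 were lower by this rule. The 3 with the highest mean over the 4 libraries were Arg1, Id2 and Il5, with normalized counts of 1524 to 1641, 1340 to 1364 and 1039 to 1252 in WT. All 3 were among those that fell, to 925 to 1061, 842 to 962 and 656 to 668, and the lowest value of any of the 17 was 11.1. The 2 that rose were Ptprc, from 706 and 701 to 919.6 and 896, and Klrg1, from 384 and 346 to 466 and 484. The other 10 did not pass, and the median log2 fold change of the 17 was -0.06. The normalized count is the authors' unit for single genes, the estimated count plus 1 scaled to a common upper quartile. Genes of other cells were counted as well, and of 15 T cell genes none was at 0 in any library. In these bulk libraries, fewer cells of a type and less RNA per cell cannot be told apart.

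Of the 7 members, 1 rose in libraries labelled ICAM-1 KO and none fell at an adjusted p under 0.05. Ikzf3, encoding Aiolos, was the member that rose, by 1.34-fold. The remaining 6 genes had fold changes between 0.781 for Runx2 and 1.13 for Runx1 and did not pass the test. Over all 11711 genes tested, 8.8% were higher and 4.97% were lower by the same rule (the quasi-likelihood test of edgeR, with p-values adjusted by Benjamini-Hochberg across the whole table), so that 1 of 7 is near the background. With the threshold of at least 2-fold that the study also applied, 0 of the 7 and 5.47% of all genes were called. No member was lower at an unadjusted p under 0.05, and 0 were lower with DESeq2 and with limma. The median log2 fold change was 0.01 over the members, as it was over all genes tested. For 5 members the WT values did not overlap those of the other group, against 59.5% of all genes. The plot of normalized counts shows the 7 genes in every library.

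**Figure D1:**
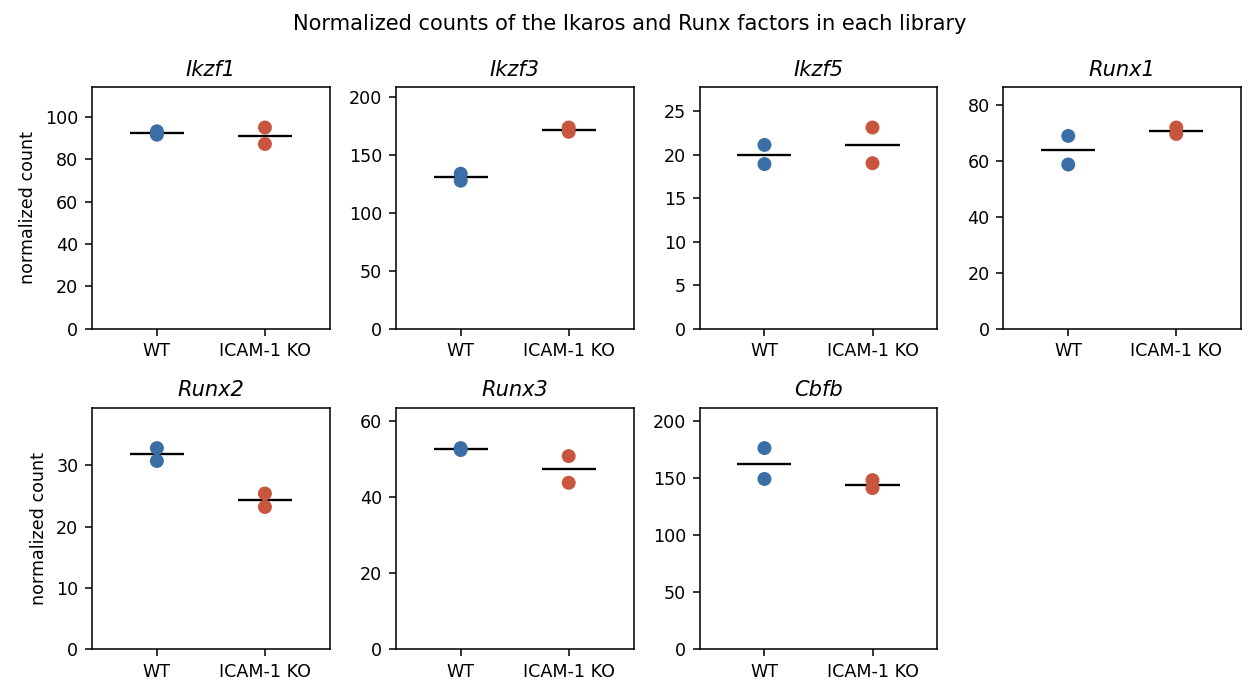
Normalized counts (y axis, from 0, a scale of its own per gene) of the 7 genes in 2 WT (blue) and 2 ICAM-1 KO (red) libraries, with points for libraries and lines for group means. The Ikzf3 points at 174 and 170.3 in libraries labelled ICAM-1 KO lie clear of those at 134 and 128 in WT, whereas the points of Ikzf1 and Ikzf5 overlap between the groups.

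Ikzf3 lies on the minus strand of chromosome 11 of mm10, from 98464902 to 98546031. Its counts were 4043 and 4046 in WT, against 5012 and 5345 in libraries labelled ICAM-1 KO. The normalized count was 134 and 128 in WT, and it was 174 and 170.3 in libraries labelled ICAM-1 KO. Both of the latter were higher than either WT library, and within each group the 2 libraries were close. The means were 131 ± 3.79 (SD, n = 2 libraries) and 172 ± 2.6. The log2 fold change was 0.42 (standard error 0.089, 95% interval 0.22 to 0.62, adjusted p = 0.0171 by edgeR quasi-likelihood). This call was lost without a filter on low counts, where the adjusted p was 0.0814, and with either WT library left out, at an adjusted p of 0.058 without WT replicate 1 and 0.0812 without WT replicate 2, while the log2 fold change stayed between 0.38 and 0.45 in all 12 alternatives.

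B cells and T cells also use Aiolos, and genes of both were higher in the same libraries. Of 15 T cell genes, all tested, 9 rose and none fell at an adjusted p under 0.05, against 8.8% and 4.97% of all genes tested. At an unadjusted p under 0.05 from edgeR, 11 were higher and 1 lower, a rule for which no share of all genes is given here. With DESeq2 10 were higher and 0 lower, while 1261 of all genes tested were higher and 930 lower. With limma 9 were higher and 0 lower. The summed normalized count of the 15 genes was 759 and 881 in WT and 1243 and 1475 in libraries labelled ICAM-1 KO. By the mean over the 4 libraries the receptor chain genes Trbc2, Trbc1 and Trac were the highest. Trbc2 had 245 and 239 in WT against 269 and 295 and did not pass (adjusted p = 0.0987 by edgeR quasi-likelihood). Trbc1 rose from 138 and 128 to 172 and 192, by 1.39-fold. Trac went from 58.8 and 78.7 to 183 and 225, by 3.02-fold. Cd3g, a chain of the CD3 complex, had 114 and 127 in WT against 81.1 and 107 (log2 fold change -0.33, adjusted p = 0.158 by edgeR quasi-likelihood). Of 10 B cell genes, 8 were tested, and 5 rose and none fell at an adjusted p under 0.05 with edgeR, against the same shares of all genes. At an unadjusted p under 0.05 from edgeR, 6 were higher and 0 lower, and with DESeq2 and with limma it was 5 and 0. The sum of the B cell genes was 181 and 165 in WT and 345 and 281 in libraries labelled ICAM-1 KO. Among the B cell genes, Cr2 was at 0 in WT replicate 1. The part of these cells in the value of Ikzf3 was not tested.

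Among genes within 2-fold of the level of Ikzf3, 2205 in all, the one with the most similar profile over the 4 libraries was Mcl1, a survival gene of the BCL2 family. Its centred log2 normalized counts were 0.0515 from those of Ikzf3 in Euclidean distance. Mcl1 had normalized counts of 219 and 212 in WT and 275 and 276 in libraries labelled ICAM-1 KO, with a log2 fold change of 0.38. Likeness over 4 libraries describes these libraries alone.

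Ikzf1, on the plus strand of chromosome 11 from 11685003 to 11772926, had nearly the same level in both groups. Its normalized count was 93.3 and 91.7 in the WT libraries and 95.1 and 87.3 in libraries labelled ICAM-1 KO. The WT values lay between the other 2, so the groups overlapped. The log2 fold change was 0.01 with a 95% interval from -0.22 to 0.23 (adjusted p = 0.978 by edgeR quasi-likelihood), and its sign changed between alternatives. The ratio of Ikzf3 to Ikzf1 normalized counts was 1.43 and 1.40 in WT and 1.83 and 1.95 in libraries labelled ICAM-1 KO. The ratio was thus higher in both of the latter, by 1.34-fold, with p = 0.333 in an exact permutation test (two-sided), the smallest p that 2 against 2 libraries allow.

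Ikzf5 was the rarest of the 3 Ikaros members. The gene lies on the minus strand of chromosome 7 from 131388652 to 131410521. Its normalized count was 18.9 and 21.1 in WT and 23.1 and 19.0 in libraries labelled ICAM-1 KO, and the groups overlapped. On the log2 scale the difference was 0.10 (95% interval -0.33 to 0.53, adjusted p = 0.778 by edgeR quasi-likelihood), the widest interval of the 7 members. Pstk, a gene on the other strand that overlaps Ikzf5, held 743 and 727 counts in WT, against 579 and 551 in libraries labelled ICAM-1 KO. These are about as many counts as Ikzf5 itself had. Fgfr2, which overlaps Ikzf5 on its own strand, held 20 and 26 in WT, against 113 and 160. Reads in the overlaps could be split between the genes.

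The family has 2 further genes, Ikzf2 and Ikzf4, which are not among the 7 members. Helios (Ikzf2) is abundant in regulatory T cells, and Eos (Ikzf4) works with Foxp3 in the same cells. Ikzf2 had normalized counts of 27.2 and 25.8 in WT and 70.0 and 80.2 in libraries labelled ICAM-1 KO, which gave a log2 fold change of 1.53 (95% interval 1.23 to 1.84, adjusted p = 0.000496 by edgeR quasi-likelihood). Ikzf4 had 11.0 and 13.4 in WT and 18.5 and 21.2 in libraries labelled ICAM-1 KO, and its log2 fold change of 0.74 narrowly missed the threshold (adjusted p = 0.0536 from the same test, 0.0262 with DESeq2). In both genes the groups did not overlap. By the same test, 8.8% of all genes tested were higher and 4.97% lower. Of 8 regulatory T cell genes, 7 were tested, and 4 of these rose (Foxp3, Ikzf2, Tnfrsf4 and Lrrc32) and 1 fell (Il2ra). Ikzf2 is itself in this list, so that its own rise is 1 of the 4 counted. With DESeq2 3 were higher and 1 lower, Tnfrsf4 being lost at an adjusted p of 0.133. Foxp3 went from 42.4 and 53.9 to 157 and 181. The 3 genes of this list with the highest means were Il2ra, Ctla4 and Tnfrsf18, and none of them rose at an adjusted p under 0.05. Il2ra went from 699 and 836 to 536 and 524. Ctla4, with 279.6 and 389.7 in WT against 389 and 435, did not pass (adjusted p = 0.164 by edgeR quasi-likelihood). Neither did Tnfrsf18, with 263 and 346 in WT against 283 and 337 (adjusted p = 0.839 by the same test). The part of regulatory T cells in the values of Ikzf2, Ikzf4 and Ikzf3 was not tested.

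**Figure D2:**
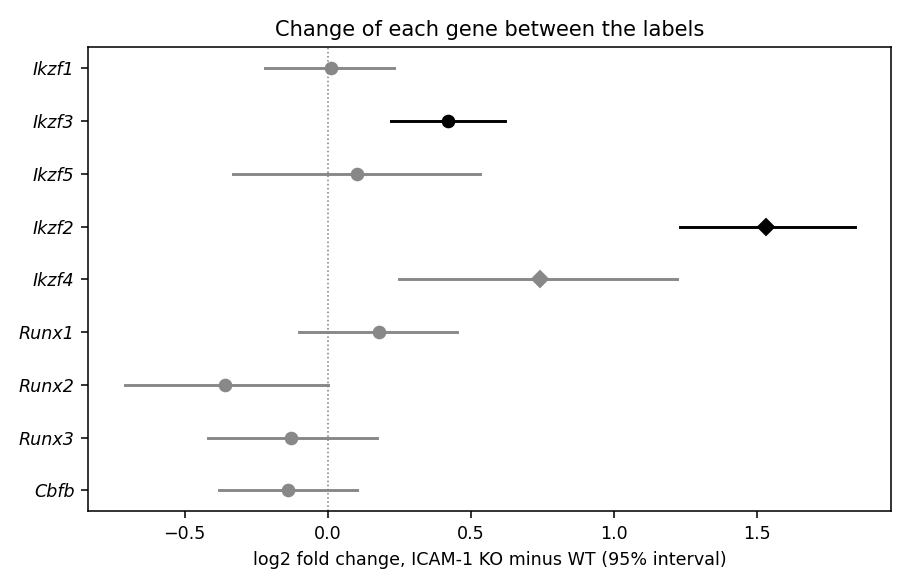
Log2 fold change of libraries labelled ICAM-1 KO over WT (x axis) with its 95% interval for the 7 members (circles) and for Ikzf2 and Ikzf4 (diamonds), in black where the adjusted p was under 0.05 and in grey otherwise. Ikzf3 at 0.42 and Ikzf2 at 1.53 are drawn in black, and the interval of Runx2 reaches from -0.71 to 0.00.

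To compare genes with one another, each normalized count was divided by the length of the longest annotated transcript in kb. On this scale Cbfb was the most abundant member at a mean of 53.0 per kb over the 4 libraries, followed by Ikzf3 at 32.9, Ikzf1 at 17.8, Runx3 at 12.8, Runx1 at 11.5, Ikzf5 at 4.64 and Runx2 at 4.34. The ranges over the 4 libraries overlapped between Runx3 (11.3 to 13.6) and Runx1 (9.99 to 12.3) and between Ikzf5 (4.27 to 5.22) and Runx2 (3.60 to 5.08), so that on this scale these neighbours did not differ beyond their spread over the 4 libraries. Within groups, Runx3 at 13.5 and 13.6 lay above Runx1 at 11.7 and 9.99 in WT. In libraries labelled ICAM-1 KO these 2 genes overlapped, at 11.3 and 13.1 against 12.3 and 11.9. Runx2 at 5.08 and 4.75 overlapped Ikzf5 at 4.27 and 4.77 in WT, whereas in libraries labelled ICAM-1 KO it lay below, at 3.60 and 3.93 against 5.22 and 4.29. The levels depend on the length used. With the union of all annotated exons the mean of Ikzf3 was 17.3 per kb and that of Runx1 5.59 per kb, each lower by over 1.5 times. Runx3 (8.74 to 10.6) then lay clear of Runx1 (4.87 to 5.97), while Ikzf3 (14.6 to 19.9) and Ikzf1 (15.1 to 16.5) overlapped. Among all genes tested with a known length, Cbfb stood at the 87.9th percentile of this level and Runx2 at the 31st.

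The summed level of the 5 Ikaros family genes was 56.4 and 55.7 per kb in WT and 72.5 and 70.9 per kb in libraries labelled ICAM-1 KO. Ikzf3 made up 49.9% to 52.1% of this sum in every library. The share of Ikzf1 was 32.1% and 31.9% in WT and 25.4% and 23.8% in libraries labelled ICAM-1 KO, and that of Ikzf2 was 5.20% and 4.99% against 10.4% and 12.2%. The sum was therefore higher in each library labelled ICAM-1 KO, with about the same amount of Ikzf1 in it. With the union of all annotated exons as the length, Ikzf3 made up 37.9% to 40.3% and Ikzf1 31.3% to 41.5%, so which of the 2 leads in WT depends on the length used.

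**Figure D3:**
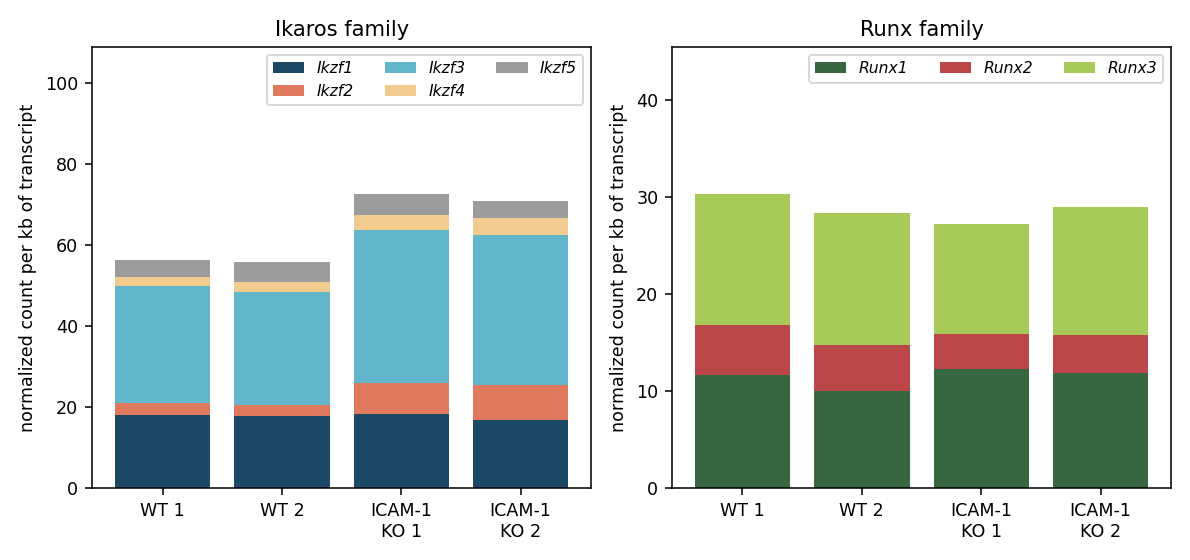
Stacked normalized counts per kb of the longest transcript (y axis, from 0) for the 5 Ikaros family genes and the 3 Runx genes in each library (x axis). The Ikaros bars are taller in libraries labelled ICAM-1 KO (72.5 and 70.9 against 56.4 and 55.7), while the Runx bars lie between 27.1 and 30.3 in all 4 libraries.

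The promoters of the 3 Runx genes are shown here because they hold copies of the motif that Runx proteins themselves bind, in a stretch that the genes share. The RUNX motif was searched for as TGTGGT on both strands, in windows from 250 bases before to 50 bases after an annotated start (RefSeq, GRCm38.p6). Windows were at hand for 6 of the 7 members, 9 windows in all, and not for Ikzf3. The motif was found in 3 of the 9, against 16.8% of the 32851 windows of all genes. These were the window of Runx2 and the upstream one of each of Runx1 and Runx3, whose downstream windows held none. In each, the motif lay on the strand opposite to the gene as a pair 2 bases apart, within the identical stretch of 14 bases ACCACAgaACCACA. The sequences are written along the strand of the gene, and capitals mark ACCACA, the motif read from the other strand. The windows are Runx1 at chr16:92826025-92826324 on the minus strand, Runx2 at chr17:44814578-44814877 on the minus strand and Runx3 at chr4:135120395-135120694 on the plus strand.
Runx1: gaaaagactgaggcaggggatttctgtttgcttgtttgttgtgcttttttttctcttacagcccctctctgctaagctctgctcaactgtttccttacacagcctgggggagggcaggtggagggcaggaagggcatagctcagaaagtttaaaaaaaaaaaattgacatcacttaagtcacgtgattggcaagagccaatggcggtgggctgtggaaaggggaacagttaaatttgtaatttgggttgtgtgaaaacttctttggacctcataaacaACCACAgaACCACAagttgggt
Runx2: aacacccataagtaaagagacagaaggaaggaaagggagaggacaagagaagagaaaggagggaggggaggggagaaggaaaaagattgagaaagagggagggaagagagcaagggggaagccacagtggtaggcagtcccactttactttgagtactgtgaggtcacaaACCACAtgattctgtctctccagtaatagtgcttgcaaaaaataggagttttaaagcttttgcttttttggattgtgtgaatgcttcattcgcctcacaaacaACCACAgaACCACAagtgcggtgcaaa
Runx3: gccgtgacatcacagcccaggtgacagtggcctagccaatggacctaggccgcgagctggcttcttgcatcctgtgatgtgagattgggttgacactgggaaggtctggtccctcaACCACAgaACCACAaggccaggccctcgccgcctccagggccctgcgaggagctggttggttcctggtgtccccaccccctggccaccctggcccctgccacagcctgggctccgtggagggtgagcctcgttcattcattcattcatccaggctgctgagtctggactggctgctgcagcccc

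The pair began 28 bases after the start in Runx1 and 23 bases after it in Runx2, and it began 134 bases before the start in Runx3. Runx2 held 1 more copy of the motif 80 bases before its start. The stretch of 14 bases was taken from the Runx windows themselves, so its presence there was given in advance. Of the 32851 windows, 4 held it (0.0122%), namely those of Runx1, Runx2 and Runx3 and that of Gm16225. Counted as any pair of the motif at this spacing of 2 bases, 7 windows held one (0.0213%). The window of Gm16225 overlaps that of Runx3 on the other strand, and its stretch is the same site, from 135120511 to 135120524 on chromosome 4. The Ikaros motif, searched for as TGGGAA on both strands, was found in 1 of the 9 windows, the upstream one of Runx3, against 25.6% of all windows. A match describes the letters alone, and binding was not measured in these libraries.

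**Figure D4:**
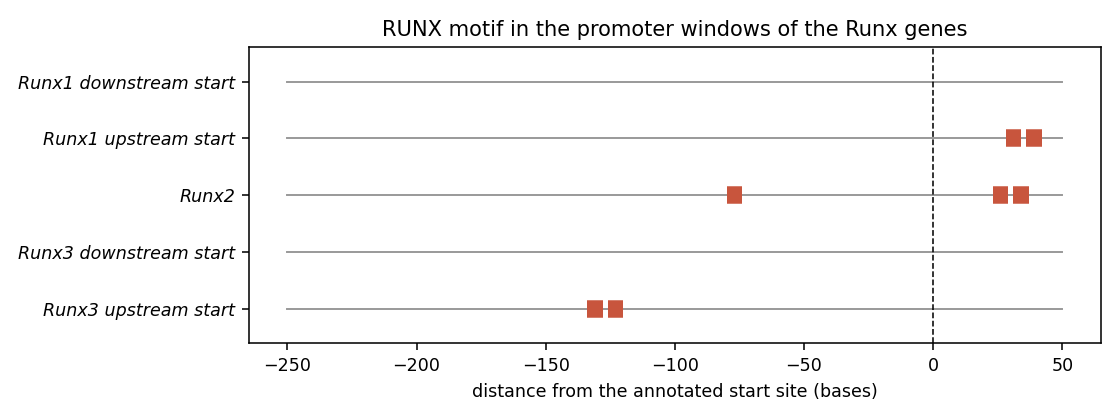
Position of the RUNX motif (red blocks) relative to the annotated start site (dashed line) in the 5 windows of the Runx genes, each reaching from 250 bases before to 50 bases after the start. Pairs of blocks lie at 28 and 36 bases in Runx1, at 23 and 31 bases in Runx2 and at -134 and -126 bases in Runx3, and the downstream windows of Runx1 and Runx3 hold none.

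Runx1, needed for the first definitive blood stem cells and active in most lymphocytes, lies on the minus strand of chromosome 16 from 92601466 to 92826149. Its normalized count was 68.8 and 58.6 in WT and 71.8 and 69.5 in libraries labelled ICAM-1 KO. The latter were both higher, but by less than the gap between the WT libraries. On the log2 scale the difference was 0.18 (95% interval -0.10 to 0.45, adjusted p = 0.358 by edgeR quasi-likelihood).

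Runx2, best known as the master factor of bone-forming cells, was the Runx gene with the lowest level per kb and the one with the largest difference. It lies on the minus strand of chromosome 17 from 44495987 to 44814797. Its counts were 994 and 968 in WT, against 669 and 796 in libraries labelled ICAM-1 KO, and the normalized count was 32.8 and 30.7 against 23.2 and 25.4. Both libraries labelled ICAM-1 KO were lower than either WT library. Its log2 fold change was -0.36 (standard error 0.158, 95% interval -0.71 to 0.00, unadjusted p = 0.0502, adjusted p = 0.166 by edgeR quasi-likelihood), and it lay between -0.43 and -0.29 in all 12 alternatives without passing the threshold in any. Supt3 and the antisense gene Runx2os1 overlap Runx2 on the other strand. Supt3 had 327 to 430 counts per library, and Runx2os1 held 71 and 75 in WT, against 45 and 51 in libraries labelled ICAM-1 KO. Since the sources used here do not state whether the counting used strand, these reads cannot be told apart from those of Runx2 where the genes overlap.

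Runx3, which silences Cd4 in CD8 T cells and is used by several innate lymphoid cells, lies on the plus strand of chromosome 4 from 135120652 to 135177990. Its normalized count was 52.3 and 52.8 in WT and 43.7 and 50.7 in libraries labelled ICAM-1 KO. Libraries labelled ICAM-1 KO were lower, yet 1 of them lay close to WT. On the log2 scale the difference was -0.13 (95% interval -0.42 to 0.17, adjusted p = 0.562 by edgeR quasi-likelihood).

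The ratio of Runx2 to Runx1 normalized counts was 0.477 and 0.524 in WT and 0.324 and 0.366 in libraries labelled ICAM-1 KO. It was lower in both of the latter, by a factor of 0.688, with p = 0.333 in an exact permutation test (two-sided), again the smallest that this design allows. In per kb levels, Runx2 made up 16.8% of the Runx sum in each WT library and 13.3% and 13.6% in libraries labelled ICAM-1 KO. The sum of the 3 genes hardly moved, at 30.3 and 28.3 per kb in WT against 27.1 and 28.8 per kb.

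Cbfb, on the plus strand of chromosome 8 from 105170674 to 105217989, was the most abundant member per kb. Its normalized count was 149 and 176 in WT and 148 and 141 in libraries labelled ICAM-1 KO. The groups did not overlap, but the gap between them was far smaller than that between the WT libraries. The log2 fold change was -0.14 (95% interval -0.38 to 0.10, adjusted p = 0.399 by edgeR quasi-likelihood). Per kb, the level of Cbfb was 1.70 and 2.14 times the summed level of the Runx genes in WT and 1.88 and 1.69 times in libraries labelled ICAM-1 KO, so that these ratios overlapped.

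Ikaros proteins recruit the NuRD complex, which joins chromatin remodelling to histone deacetylation, and the corepressors Sin3 and CtBP. Of 17 genes of these complexes, all tested, 0 were higher and 1 was lower by the same rule in edgeR (0 and 5 at an unadjusted p under 0.05, 0 and 3 with DESeq2, 0 and 2 with limma). Over all 11711 genes tested 8.8% were higher and 4.97% lower with edgeR, so that 1 of 17 lower is near that share. The gene that fell was Hdac2, a deacetylase of NuRD, from 141 and 144 to 114 and 110.1 normalized counts (log2 fold change -0.33, adjusted p = 0.0467), and this call was lost in 8 of 12 alternatives, among them each of the 4 that left a library out (adjusted p from 0.112 without WT replicate 1 to 0.165 without ICAM-1 KO replicate 2). The median log2 fold change of the 17 genes was -0.09, with 4 positive and 13 negative values, and the core ATPase gene Chd4 had a log2 fold change of -0.11.

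Of 16 genes whose proteins work with Runx factors, all tested, 2 rose and 2 fell (7 and 2 at an unadjusted p under 0.05, 4 and 2 with DESeq2, 2 and 2 with limma). With edgeR, 8.8% of all genes tested rose and 4.97% fell. Among the 4 called by edgeR, Groucho family genes gave the largest change in each direction. Tle3, a corepressor that binds the end of Runx proteins, fell from 63.1 and 66.7 to 14.6 and 15.6 normalized counts, a log2 fold change of -2.07 (adjusted p = 0.000136 by edgeR quasi-likelihood). Its relative Tle1 rose from 9.90 and 12.3 to 27.8 and 26.7 (log2 fold change 1.32, adjusted p = 0.00462). In both genes the libraries of each group lay close together and far from the other group. Prmt1, an arginine methyltransferase that modifies Runx1, fell from 155 and 157 to 107 and 118 (log2 fold change -0.44, adjusted p = 0.0194), and Ets1, which binds DNA beside Runx1, rose from 556 and 588 to 728 and 678 (log2 fold change 0.32, adjusted p = 0.0344). The calls of Tle1 and Tle3 held in all 12 alternatives, whereas those of Prmt1 and Ets1 held in 8 and 7. Both were lost without a filter on low counts (adjusted p = 0.0564 and 0.0885), without WT replicate 1 (0.0692 and 0.163), without WT replicate 2 (0.0801 and 0.0969) and without ICAM-1 KO replicate 1 (0.0877 and 0.141). The median log2 fold change of the 16 genes was 0.28.

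A list of 26 loci at which Runx or Ikaros proteins are known to act in blood cells held 21 genes that passed the filter. Of these, 8 rose and 1 fell, with a median log2 fold change of 0.36 (8 and 2 at an unadjusted p under 0.05, 8 and 1 with DESeq2, and with limma 8 and 1 at a pseudocount of 1 and 6 and 1 at 0.1). Among all genes tested 8.8% rose and 4.97% fell with edgeR, so that 1 of 21 lower is near that share. The largest increases were those of Foxp3 (log2 fold change 1.84, adjusted p = 0.000224 by edgeR quasi-likelihood), Cd4 (1.55, adjusted p = 0.00143) and Itgax (1.35, adjusted p = 0.0333). Cd4, which Runx proteins silence in cells outside the helper lineage, went from 22.3 and 27.3 to 61.5 and 80.5 normalized counts. Itgae, which encodes the integrin CD103 and depends on Runx3 in CD8 T cells, rose from 15.3 and 22.5 to 36.9 and 31.9 (log2 fold change 0.89), and Tigit, an inhibitory receptor, rose from 16.2 and 24.0 to 31.9 and 34.7 (log2 fold change 0.76). Csf2, encoding GM-CSF, was the gene that fell, from 419 and 320.5 to 218 and 271 (log2 fold change -0.57, adjusted p = 0.0352). Itgal, the CD11a subunit of LFA-1, the receptor of ICAM-1, had 296 and 316 in WT and 312 and 316 in libraries labelled ICAM-1 KO. Among the 21 loci, 3 were higher and 0 lower both without a filter on low counts and without WT replicate 1, and 4 were higher and 2 lower without ICAM-1 KO replicate 2. Over the 12 alternatives the calls of Foxp3 and Cd4 held in all, that of Itgae in 10, those of Itgax and Csf2 in 8 and that of Tigit in 7. Of the 8 loci that rose, 4 also stand in the marker lists of other cells, namely Cd4 (T cells), Foxp3 (regulatory T cells), Itgax (dendritic cells) and Csf1r (macrophages and monocytes, log2 fold change 1.14, adjusted p = 0.00418 by edgeR quasi-likelihood). The others were Itgae, Tigit, Il10 and Dtx1, and absence from these short lists does not show that other cells lack their RNA. Il10 was at a low level, 2.54 and 2.50 in WT against 6.56 and 5.70 (adjusted p = 0.0421 by edgeR quasi-likelihood). Dtx1 had 6.54 and 3.89 in WT against 11.2 and 10.6 (adjusted p = 0.0485 by the same test). Whether the calls of Il10, Dtx1 and Csf1r held over the alternatives is not given here. The part of other cells in the values of all 8 loci was not tested.

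**Figure D5:**
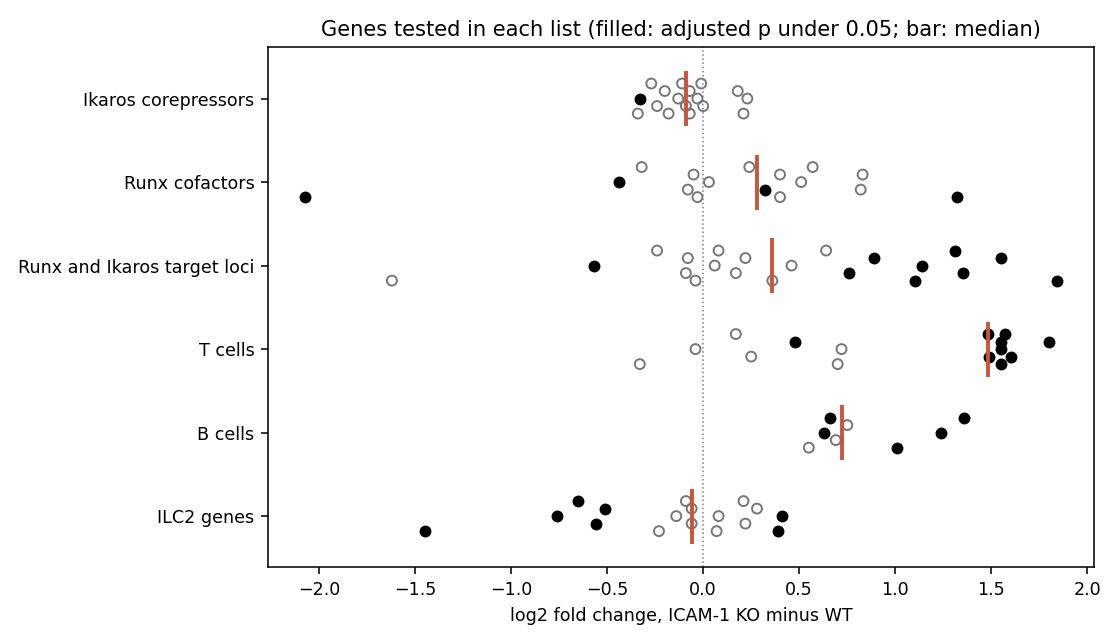
Log2 fold change (x axis) of each gene tested in 6 lists (rows), with filled points at an adjusted p under 0.05, open points otherwise and a red bar at the median of each list. The medians are -0.09 for Ikaros corepressors, 0.28 for Runx cofactors, 0.36 for Runx and Ikaros target loci, 1.48 for T cells, 0.72 for B cells and -0.06 for ILC2 genes.

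Genes of several other lung cells were also higher in libraries labelled ICAM-1 KO. For comparison, 8.8% of all genes tested were higher and 4.97% lower by the same rule. Of 10 endothelial genes 10 rose, and their summed normalized count was 139 and 148 in WT against 367 and 386. Of 10 genes of macrophages and monocytes 7 rose, 6 with limma (282 and 303 against 599 and 855), of 5 dendritic cell genes tested 3 rose (183 and 235 against 246 and 263), and of 6 genes tested of NK cells and ILC1 3 rose (47.5 and 60.8 against 90.9 and 88.9). Most of the dendritic cell sum was Ccr7, at 149 and 199 against 184 and 190.4, which did not pass (adjusted p = 0.543 by edgeR quasi-likelihood). Of 4 plasma cell genes tested 3 rose (2 with DESeq2), with sums of 259 and 492 against 652 and 846. Most of the plasma cell sum was Xbp1 and Jchain. Xbp1 rose from 160.5 and 201 to 278 and 276. Jchain, at 74.2 and 234 against 266 and 442, did not pass (adjusted p = 0.0877 by edgeR quasi-likelihood). In the list of eosinophils, basophils and mast cells 1 of 7 genes tested rose (2 with DESeq2) and 2 fell. The gene that rose was Ccr3, from 5.18 and 8.42 to 14.6 and 25.6 normalized counts, joined by Cpa3 with DESeq2. Those that fell were Prg2 and Epx, and Epx was at 0 in both libraries labelled ICAM-1 KO. Of 5 neutrophil genes tested 2 rose, and of 8 epithelial genes tested 3 rose (2 with DESeq2). Of 5 fibroblast genes tested 0 passed with edgeR, DESeq2 or limma, and 1 was higher at an unadjusted p under 0.05. The part of these cells in the values of the 7 members was not tested.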

How the data were processed

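Total RNA of sorted lung ILC2s was converted to cDNA from 10 ng with a SMARTer low-input kit and sequenced. The authors mapped reads to mm10 by STAR, counted them against GENCODE M20 and deposited estimated counts (expected counts) per gene from Partek, which are not normalized, of which 61.1% were whole within 0.01. They also deposited a normalized signal for 18324 genes by upper quartile normalization. Estimated counts were rounded to whole numbers before testing. Of the 18324 genes, 11711 reached a mean of 1 and a sum of 10 normalized counts, the limits of the study's methods, and were fitted with edgeR 4.0.16 in R 4.3.3 (upper quartile factors, glmQLFit with legacy set to FALSE, no covariate). The sum was taken over the libraries analysed here, and a mean of 1 alone would have kept 13562. The genes tested may therefore differ from those of the study. The GSA method of the study was not run. A change was called at a Benjamini-Hochberg adjusted p under 0.05.

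The members and lists were chosen with earlier results of these data known. Named genes are the members, Icam1, Ikzf2, Ikzf4, the calls of each list (beyond 6, the 3 at each end by fold change), the 3 most abundant genes of a marker list, and the closest profile to a called member. Ctla4, Cd3g, Ptprc, Klrg1, Csf1r, Il10, Dtx1, Chd4, Itgal, Cr2, Epx, Prg2, Ccr3, Cpa3, Ccr7, Gm16225, the regulatory T cell genes called and overlapping genes were chosen after their values were seen. Lengths are of GENCODE M21, whose coordinates equal those of the files for the 7 members once the end is moved by 1 base. Alternatives were TMM factors, DESeq2 1.42.0, no filter, filterByExpr, limma 3.58.1 on the log2 of the normalized count plus 1 or 0.1, the older quasi-likelihood method, a replicate block and each library left out. The edgeR, DESeq2 and limma fits were tested on simulated data. With 2 pools per group, p-values measure the spread between these samples only.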

Additional observations from a re-analysis of the deposited data

How the results depend on the processing

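The direction and the side of the threshold held in all 12 alternatives for Runx1, Runx2, Runx3, Cbfb, Ikzf2, Tle1, Tle3, Foxp3 and Cd4. Ikzf3 kept its direction in all 12 and its call in 9. Without a filter on low counts (22158 genes tested) 0 members were higher, 334 of all genes were higher and 201 lower, and the Ikaros corepressors had 0 lower, the Runx cofactors 1 higher and 1 lower and the target loci 3 higher and 0 lower. With DESeq2 930 of all genes were lower, 3 corepressors were lower and 4 cofactors higher. With filterByExpr 0 corepressors were lower, 1 cofactor and 5 target loci higher, with either limma setting 2 corepressors were lower, with limma at a pseudocount of 0.1 6 target loci were higher, and with the older quasi-likelihood method 0 corepressors were lower and 4 target loci higher and 0 lower. When single libraries were omitted, the count of members higher ranged from 0 to 1, of all genes higher from 479 to 948 and lower from 158 to 388, of corepressors lower it was 0, of cofactors from 1 to 3 higher and from 1 to 2 lower, and of target loci from 3 to 6 higher and from 0 to 2 lower. The lone library left in a group was then assumed to vary like those of the other group. The log2 fold change of Ikzf1 was -0.04 without a filter, -0.02 with filterByExpr and with both limma settings, -0.00191 with DESeq2, and -0.05 to 0.06 with a library left out, and that of Ikzf5 was -0.04 without ICAM-1 KO replicate 1 in a range from -0.04 to 0.22. The cause of these changes was not tested.

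The replicate numbers do not mark shared animals, and libraries with the same number did not deviate together (correlation -0.0663 over 11711 genes). With the replicate block 1 member was higher and 0 lower, Ikzf3 had an adjusted p of 0.0171, and 0 corepressors were lower, since Hdac2 had an adjusted p of 0.0554, while 1077 of all genes were higher and 638 lower. With the union of exons as length, chosen after seeing the data, the mean level per kb was 44.1 for Cbfb, 17.3 for Ikzf3, 15.9 for Ikzf1, 9.97 for Runx3, 5.59 for Runx1, 3.59 for Ikzf5 and 3.17 for Runx2. Applying the alternatives to the lists and to the other genes named was also decided after seeing the data.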
